A study of Mus musculus with 6 samples.

Results

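The genes of the respiratory chain and of the ATP synthase, encoded in the nucleus and on the mitochondrial genome, were compared in naive CD8 T cells of mice with and without CD103. Members were taken by symbol: Nduf and mt-Nd genes for complex I, Sdh for complex II, Uqcr and mt-Cytb for complex III, Cox and mt-Co for complex IV, Atp5 and mt-Atp for complex V, and Cycs for cytochrome c. A mean of at least 1 CPM (a gene's counts scaled to the library total) over the 6 libraries was also required. Of 55450 genes in the table, 111 matched by symbol and 92 of these passed the threshold, 79 nuclear and 13 mitochondrial. All 92 also passed the filter on low counts of the test across all genes. Both groups were lymph node CD8 T cells sorted as negative for Ly6C and CXCR3: 3 WT libraries from C57BL/6 mice and 3 CD103KO libraries from Itgae-/- mice. The labels give no age and no treatment. They name no separate animals for the libraries, and the p-values therefore refer to the spread between these 6 libraries, of which a portion may be technical. Itgae encodes the integrin alpha chain CD103.

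The respiratory chain sits in the inner mitochondrial membrane. Complexes I and II pass electrons from NADH and succinate to ubiquinone, complex III passes them to cytochrome c, and complex IV passes them to oxygen. Complexes I, III and IV pump protons, and complex V, the ATP synthase, uses the returning protons to make ATP. Complex II is built from nuclear genes only, while the other complexes join nuclear subunits with a few core subunits encoded on mitochondrial DNA, which is transcribed as long precursors and cut into single mRNAs. Naive T cells are resting cells that rely largely on oxidative phosphorylation, and they enlarge this machinery when they are activated.

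Itgae was at 491, 495 and 459.9 CPM in WT replicates 1 to 3 and at 67.9, 67.9 and 61.1 CPM in CD103KO replicates 1 to 3 (log2 fold change -2.88, SE 0.06, adjusted p = 4.06e-08, edgeR quasi-likelihood test). Total counts were 68292475 to 94347034 per library. Xist was read in WT replicate 1 (5012 counts) and WT replicate 2 (7628 counts), where the Y-linked Ddx3y was at 0. Each of the other 4 libraries held at most 2 Xist counts. In these Ddx3y was at 4466 counts in WT replicate 3 and at 3944, 3714 and 3612 counts in CD103KO replicates 1 to 3. Genotype and this split are partly confounded, since every CD103KO library fell with WT replicate 3. The 8 CD8 T cell markers summed to 6857 ± 253 CPM in WT against 6925 ± 140 CPM in CD103KO (SD, n = 3 each), and the 6 naive markers summed to 5101 ± 192 and 4876 ± 113 CPM. The 8 B cell markers summed to 2.48 to 3.08 CPM in WT and 7.48 to 12.01 CPM in CD103KO, and 3 of the 8 passed with edgeR (Cd79a, Fcer2a and Ms4a1) and 6 with DESeq2. The 7 erythrocyte and platelet markers summed to 33.0 to 50.1 CPM in WT and 57.4 to 93.0 CPM in CD103KO. None of these passed with edgeR, 3 passed with DESeq2 (Hba-a1, Hba-a2 and Hbb-bt), and Pf4 was at 0 in every library. The part of these cells in the values below was not tested. In RNA from bulk cells, fewer cells of a type and less RNA per cell cannot be told apart.

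None of the 92 respiratory chain genes passed the threshold of 0.05 for the adjusted p between CD103KO and WT by edgeR, where 30 of 13470 tested genes did, which is 0.223%. DESeq2 and limma-voom called none of the 92 either, against 0.822% and 0.215% of the genes each tool tested. In the edgeR fit of group alone, the 95% interval of the fold change lay within 1.2-fold in either direction for 86 of the 92. That held for 6647 of the 13470 genes. The 6 exceptions were Ndufb4, Ndufb9, Atp5s, mt-Nd6, mt-Atp6 and mt-Atp8. At an unadjusted p under 0.05 there were 3 members, all lower in CD103KO (Ndufa6, Ndufb4 and Cox7a2l), beside 8.73% of all tested genes (4.53% higher and 4.2% lower). Groups that did not overlap were found for 9 members, 3 higher and 6 lower, beside 14.2% of all tested genes (6.82% higher and 7.36% lower). The fit of group alone has no term for the split in Xist reads, so its intervals do not cover that split. A term for it sets CD103KO against WT replicate 3 alone. The median log2 fold changes were then -0.051 for nuclear and -0.081 for mitochondrial members, beside 0.0025 over all tested genes.

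By genome of origin, the median log2 fold change was -0.0080 over the 79 nuclear genes and 0.032 over the 13 mitochondrial genes, beside -0.0025 over all 13470 tested genes. Of the nuclear genes 32 had positive and 47 negative values, and of the mitochondrial genes 9 had positive and 4 negative values. With RLE factors in place of TMM the counts were 35 and 44 nuclear and 11 and 2 mitochondrial, and with upper-quartile factors 26 and 53 nuclear and 9 and 4 mitochondrial. Over all tested genes the positive and negative counts were 6595 and 6875 with TMM. They were 6735 and 6735 with RLE factors and 6244 and 7226 with upper-quartile factors. The nuclear members together took 0.875 ± 0.0101% of all counts in WT and 0.869 ± 0.00530% in CD103KO (SD, n = 3 each). The mitochondrial members took 4.28 ± 0.232% in WT and 4.38 ± 0.249% in CD103KO. Both differences were within the spread between replicates, and the ratio of mitochondrial to nuclear counts was 4.88 ± 0.221 in WT and 5.04 ± 0.301 in CD103KO.

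**Figure D1:**
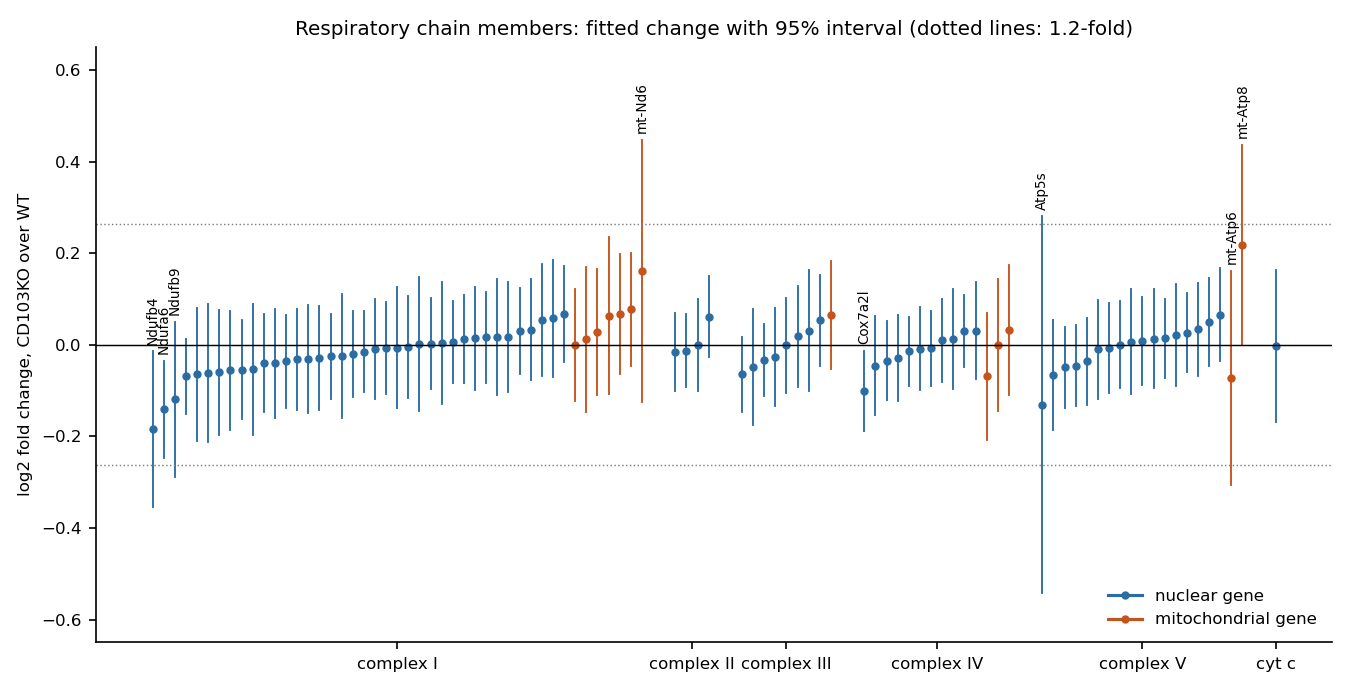
Log2 fold change of CD103KO over WT (y axis) for each of the 92 members with its 95% interval, grouped by complex along the x axis, nuclear genes in blue and mitochondrial genes in orange. The intervals of 86 genes stay between the dotted lines at 1.2-fold, and those of Ndufb4, Ndufb9, Atp5s, mt-Nd6, mt-Atp6 and mt-Atp8 reach past them.

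Complex I, the NADH dehydrogenase, had 45 members, 38 nuclear and 7 mitochondrial, with a median log2 fold change of -0.0062. Ndufa6, an accessory subunit that binds the mitochondrial acyl carrier protein (chr15:82350140-82354322, minus strand, GRCm38), was at 83.3, 85.4 and 90.2 CPM in WT and at 78.7, 81.1 and 74.9 CPM in CD103KO. The 3 CD103KO values lay below the 3 WT values, and the log2 fold change of -0.14 (SE 0.05) had the smallest p of all 92 genes but did not pass (adjusted p = 0.445, edgeR). Ndufb4, a membrane arm subunit, was at 12.4, 11.3 and 12.5 CPM in WT and at 11.4, 10.2 and 10.3 CPM in CD103KO (log2 fold change -0.18, SE 0.07, adjusted p = 0.530, edgeR). Its groups touched, since CD103KO replicate 1 was above WT replicate 2.

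The transcript of Ndufb4 matches that of Ndufb4c, annotated as a processed pseudogene on chromosome 15, over 390 bases at 100% identity, so that reads within that stretch cannot be assigned to one of them by sequence. Ndufb4c, a member by its symbol, held the larger part of the counts, 27.3 ± 1.14 CPM in WT against 26.2 ± 0.993 CPM in CD103KO (SD, n = 3 each). With both summed the log2 fold change was -0.10 (SE 0.06, adjusted p = 0.670, edgeR). Ndufa13, a subunit of the hydrophobic core also known as GRIM-19, was at 105 ± 2.23 CPM in WT against 99.95 ± 0.552 CPM in CD103KO, with CD103KO below WT in every library (log2 fold change -0.07, SE 0.04, adjusted p = 0.638, edgeR). Ndufs3, a core subunit of the matrix arm, lay above WT in every CD103KO library, at 48.0 ± 1.68 and 50.3 ± 0.883 CPM (log2 fold change 0.07, SE 0.05, adjusted p = 0.718, edgeR). Ndufb9 was at 58.0, 52.3 and 55.9 CPM in WT and at 56.6, 46.5 and 49.9 CPM in CD103KO, with overlapping groups (adjusted p = 0.695, edgeR).

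Complex II, the succinate dehydrogenase shared with the TCA cycle, had its 4 subunits at nearly equal levels in both groups. Sdha, the flavoprotein that oxidises succinate, was at 333, 322 and 327 CPM in WT and at 320, 323 and 330.1 CPM in CD103KO. Sdhb, the iron-sulfur subunit, was at 73.4 ± 3.69 and 73.4 ± 0.538 CPM, and Sdhc, a membrane anchor, at 74.1 ± 0.635 and 73.2 ± 2.03 CPM (SD, n = 3 each). Sdhd, the other anchor, was at 74.9, 73.6 and 76.9 CPM in WT and at 77.1, 77.1 and 80.9 CPM in CD103KO. Its CD103KO values all lay above WT, by 0.06 on the log2 scale (SE 0.04, adjusted p = 0.695, edgeR). The median over the 4 genes was -0.0063.

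Complex III, the cytochrome bc1 complex, had 8 nuclear members and mt-Cytb. Uqcrh, the hinge subunit that lies beside cytochrome c1, was at 214, 212 and 221 CPM in WT and at 204, 209 and 206 CPM in CD103KO, which is lower in every CD103KO library (log2 fold change -0.06, SE 0.04, adjusted p = 0.664, edgeR). Uqcrfs1, the Rieske iron-sulfur protein, was also lower in every CD103KO library, at 97.3 ± 0.685 and 95.1 ± 1.13 CPM (adjusted p = 0.816, edgeR). Uqcrc1, a core protein, was at 145, 140.4 and 154 CPM in WT and at 155, 149.5 and 152 CPM in CD103KO, with overlapping groups. The median over the 9 members was -0.0010, and all 9 intervals lay within 1.2-fold.

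In complex IV, cytochrome c oxidase, the lowest unadjusted p belonged to Cox7a2l. It is not a catalytic subunit but a factor known for joining complexes III and IV into supercomplexes, which were not measured in these mice. Cox7a2l (chr17:83501918-83517330, minus strand) was at 591, 607 and 622 CPM in WT and at 556, 584 and 557 CPM in CD103KO. The groups did not overlap, and the log2 fold change was -0.10 (SE 0.04, adjusted p = 0.506, edgeR). Cox4i1, a nuclear subunit that takes part in regulation by ATP, was at 270 ± 1.42 CPM in WT against 267 ± 1.74 CPM in CD103KO, again without overlap but with a log2 fold change of only -0.015 (SE 0.03, adjusted p = 0.930, edgeR). Cox6c was slightly higher in every CD103KO library, 94.1 ± 0.481 against 96.1 ± 1.21 CPM (adjusted p = 0.830, edgeR). All 14 intervals in this complex lay within 1.2-fold, and the median was -0.0081.

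Among the isoforms of complex IV subunits, those known from other tissues were near or at 0. Cox4i1 held 125519 counts over the 6 libraries against 19 for Cox4i2, a form of lung. Cox6a1 held 52519 counts against 8 for Cox6a2, the form of heart and skeletal muscle. Cox7a2 held 27951 counts against 25 for Cox7a1, also a muscle form. Cox6b1 held 51388 counts against 146 for Cox6b2, a testis form. Cox8a held 56294 counts, with 0 for Cox8b and Cox8c, and in complex I the symbol-related Ndufa4l2 had 0 counts where Ndufa4, since assigned to complex IV, had 49205. A count of 0 allows at most 0.0439 CPM in the shallowest library, taking 3 counts as the limit (counting error only).

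Complex V, the ATP synthase, had 17 nuclear and 2 mitochondrial members and a median of 0.0063. Atp5b, the catalytic beta subunit, was at 831, 803 and 891 CPM in WT and at 873, 873 and 896 CPM in CD103KO (log2 fold change 0.07, SE 0.04, adjusted p = 0.716, edgeR). Atp5e, a subunit of the central stalk, was at 116 ± 3.34 and 112 ± 2.31 CPM, and Atp5k, subunit e of the membrane part, at 42.6 ± 2.18 and 40.7 ± 0.463 CPM (SD, n = 3 each). Both had negative values that did not pass (adjusted p = 0.751 and 0.756, edgeR). The membrane ring of c subunits is encoded by Atp5g1, Atp5g2 and Atp5g3, whose mature proteins are the same. They held 19.1%, 41.3% and 39.6% of the family's counts, and each overlapped between groups.

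Cycs, the cytochrome c gene, whose product carries electrons from complex III to complex IV and triggers apoptosis when it leaves the mitochondrion, was at 123, 105 and 109.7 CPM in WT and at 102, 119 and 116 CPM in CD103KO. The highest and the lowest of the 6 values were WT replicate 1 and CD103KO replicate 1, and the log2 fold change was -0.0023 (SE 0.07, adjusted p = 0.995, edgeR). On chromosome 11, which carries Itgae, lay Uqcrq, Atp5g1, Atp5h and Uqcr10, at 19.7, 22.9, 42.3 and 68.4 Mb from Itgae. Their groups all overlapped, with log2 fold changes of -0.03, -0.0074, 0.0084 and 0.03.

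**Figure D2:**
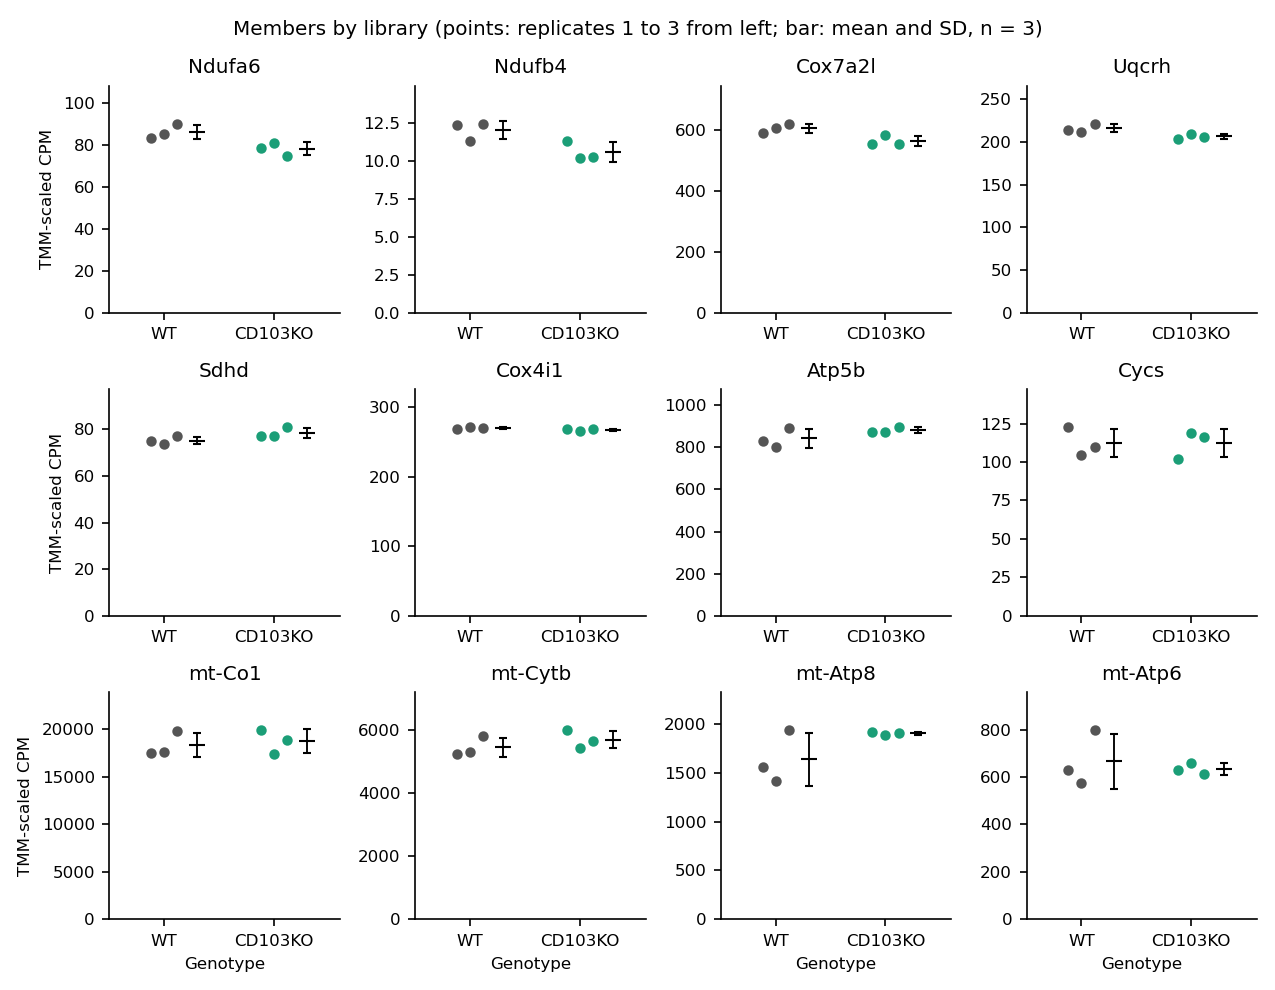
TMM-scaled CPM (y axis, from 0) of 12 members in WT (grey) and CD103KO (green), with replicates 1 to 3 from left to right and the mean and SD beside them. Ndufa6, Cox7a2l, Uqcrh and Cox4i1 are lower in every CD103KO library, and Sdhd is higher in every CD103KO library. The genes mt-Atp8 and mt-Atp6 vary more among the WT libraries than among the CD103KO libraries.

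The 13 mitochondrial mRNA genes need a statement on how they were counted before their values. Chromosome 1 carries, from 24611535 to 24616197 on the minus strand (GRCm38), a run of 7 annotated unprocessed pseudogenes that copy mt-Co1 (its end), mt-Co2, mt-Atp6, mt-Co3, mt-Nd3, mt-Nd4l and mt-Nd4 (its start). Over the bases compared, the copies of mt-Co2 (681 bases), mt-Atp6 (678), mt-Co3 (783), mt-Nd4l (294) and mt-Nd4 (876) had 0 differences, and that of mt-Nd3 had 1 in 345 bases (T3C, the gene's base first, position counted from the gene's first base, then the copy's base). The copy of mt-Co1, Gm29216, starts at base 1054 and had 6 differences in 492 bases, all near its start: T1056A, C1057T, A1059G, A1060G, C1062A and A1066T. The first 60 bases of mt-Co2 and of its copy Gm28661, and bases 1054 to 1113 of mt-Co1 and of its copy Gm29216, are shown from GENCODE M21 to let the likeness be seen, with differing bases in capitals.
mt-Co2: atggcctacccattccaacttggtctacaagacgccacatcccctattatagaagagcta
Gm28661: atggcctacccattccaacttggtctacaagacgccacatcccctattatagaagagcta
mt-Co1: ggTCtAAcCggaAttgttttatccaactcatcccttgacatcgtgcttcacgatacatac
Gm29216: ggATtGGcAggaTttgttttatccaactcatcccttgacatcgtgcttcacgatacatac

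In the deposited counts these copies held 1.91 ± 0.0466% of all counts in WT and 1.99 ± 0.0666% in CD103KO (SD, n = 3 each). That was 30.9% and 31.3% of the sum of mitochondrial members and copies, a sum of 6.18 ± 0.263% and 6.37 ± 0.316% of all counts. Gm28661 was at 6147 ± 353 CPM in WT against 6331 ± 347 CPM in CD103KO, against 615 ± 56.2 and 615 ± 19.0 CPM for mt-Co2 itself. The copy thus held between 90.2% and 91.6% of the pair's counts in each library. For mt-Atp6 the copy Gm10925 held 88.0% to 91.0%, and for mt-Co3 the copy Gm28437 held 70.3% to 76.2%. The shares were 38.95% to 49.9% for mt-Nd4l, 27.6% to 33.2% for mt-Nd3, 7.34% to 7.85% for mt-Co1 and 0.264% to 0.403% for mt-Nd4. Identical stretches give reads that sequence alone cannot place, and how the authors' counting divided them is not given in the sources used here.

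With each copy added to its gene, the levels per length along the genome changed order. On its own, mt-Co2 was at 899 CPM per kb, mt-Atp6 at 956 and mt-Co3 at 2387, against 11994 for mt-Co1 and 8697 for mt-Atp8, which has no annotated copy there. Summed with the copies, mt-Co2 was at 10021, mt-Atp6 at 9670, mt-Co3 at 9106 and mt-Co1 at 12987 CPM per kb. The ratio of mt-Co1 to mt-Co2 per kb was 13.3 on their own and 1.30 summed, and that of mt-Atp8 to mt-Atp6 was 9.10 and 0.899. The genes mt-Atp8 and mt-Atp6 are carried by 1 mRNA and overlap by 43 bases (chrM:7927-7969, plus strand), as do mt-Nd4l and mt-Nd4 by 7 bases (chrM:10167-10173). The windows below are shown because the overlap, in capitals, starts with the first codon of the second gene of each pair.
mt-Atp8 and mt-Atp6: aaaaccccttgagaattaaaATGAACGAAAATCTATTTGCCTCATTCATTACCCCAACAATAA
mt-Nd4l and mt-Nd4: caaaatctcaacctactacaATGCTAA

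**Figure D3:**
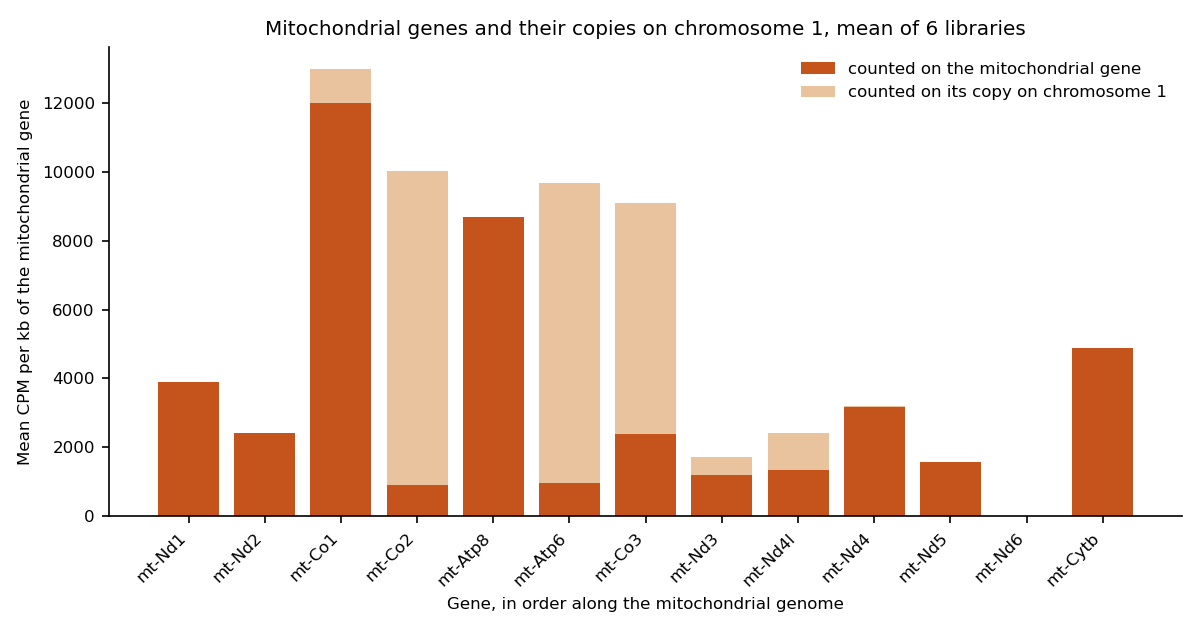
Mean CPM per kb over 6 libraries (y axis) of the 13 mitochondrial genes in genome order (x axis), with counts on the gene in orange and counts on its chromosome 1 copy, divided by the gene's length, stacked in pale orange. Summed, mt-Co1, mt-Co2, mt-Atp8, mt-Atp6 and mt-Co3 stand at 12987, 10021, 8697, 9670 and 9106 CPM per kb.

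mt-Co1, the catalytic core of complex IV, was at 17542, 17624 and 19815 CPM in WT and at 19908, 17394 and 18904 CPM in CD103KO. The groups overlapped (log2 fold change 0.03, SE 0.06, adjusted p = 0.917, edgeR), and mt-Co1 made up 42.9 ± 0.0948% of the counts of mitochondrial members in WT and 42.7 ± 0.629% in CD103KO. These shares leave out the chromosome 1 copies, which held 30.9% and 31.3% of the sum of members and copies. With the copies counted, the share of mt-Co1 is lower. mt-Cytb, the only mitochondrial subunit of complex III, was at 5449 ± 309 and 5700 ± 282 CPM (adjusted p = 0.757, edgeR). The complex I genes mt-Nd1, mt-Nd2, mt-Nd4 and mt-Nd5 were at 3614 ± 196, 2508 ± 125, 4332 ± 301 and 2859 ± 201 CPM in WT. In CD103KO they were at 3812 ± 219, 2508 ± 149.5, 4416 ± 277 and 2884 ± 252 CPM (SD, n = 3 each). All overlapped between groups. mt-Nd6, the only mRNA gene on the opposite strand, was at 2.61 ± 0.293 CPM in WT against 2.92 ± 0.154 CPM in CD103KO, and per kb stood 913-fold below mt-Cytb. It overlaps mt-Nd5 by 14 bases, and the strand setting of the counting is not given in the sources used here. How fully this kind of library, which selects poly(A) tails, captures mt-Nd6 mRNA was not tested. The ratio to mt-Cytb is therefore one of counts and not of RNA in the cells.

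mt-Atp8, a small membrane subunit of the ATP synthase, had the largest log2 fold change of the 92 genes, 0.22 (SE 0.10, adjusted p = 0.575, edgeR). It was at 1564, 1417 and 1939.7 CPM in WT and at 1925, 1889.5 and 1909.6 CPM in CD103KO. WT replicate 3 stood with the CD103KO libraries, and WT replicates 1 and 2, the libraries with Xist reads, stood below. With a term for libraries with Xist reads, in which the CD103KO libraries are set against WT replicate 3 alone, the log2 fold change was -0.02 (SE 0.05, adjusted p = 0.940, edgeR). Without WT replicate 3 it was 0.36 (SE 0.04, adjusted p = 0.0176, edgeR), the only setting tried in which any of the 92 genes passed. In that setting 52 genes passed in all, 0.379% of those tested.

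mt-Atp6, the proton channel subunit, was at 628, 576 and 798 CPM in WT and at 630.2, 661 and 613 CPM in CD103KO, a log2 difference of -0.07 (SE 0.10, adjusted p = 0.871, edgeR). Summed with its copy the value was 0.07 with a smaller SE of 0.04 (adjusted p = 0.600, edgeR), so the sign depended on which counts were taken. It also depended on WT replicate 3, without which mt-Atp6 on its own was at 0.08 (SE 0.05, adjusted p = 0.626, edgeR). With the term for libraries with Xist reads, in which CD103KO is set against WT replicate 3 alone, mt-Atp6 on its own was at -0.33. Its copy Gm10925 was at 5833.5 CPM in WT replicate 3 and at 6151, 6042 and 6171 CPM in CD103KO replicates 1 to 3. The gene and copy summed were not fitted in this setting. Of the 7 copies 4 overlapped between groups, and Gm10925, Gm28438 and Gm28439 did not, higher in CD103KO (beside 6.82% of all tested genes), and did not pass (adjusted p = 0.485, 0.303 and 0.421, edgeR). Summed values were 0.04 for mt-Co2, 0.04 for mt-Co3, 0.13 for mt-Nd3 and -0.02 for mt-Nd4l, none of which passed (smallest adjusted p = 0.540, edgeR, for mt-Nd3).

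The mitochondrial genes varied more between libraries than the nuclear genes did. The median SD of log2 CPM within groups was 0.099 for the 13 mitochondrial genes and 0.050 for the 79 nuclear genes. Set against each gene's mean over the 6 libraries, the median mitochondrial gene was at -0.08, -0.07 and 0.10 in WT replicates 1 to 3 and at 0.10, -0.01 and 0.03 in CD103KO replicates 1 to 3 (log2). The median nuclear gene was at 0.0016, -0.03 and 0.05 in WT and at -0.02, -0.0045 and 0.01 in CD103KO. WT replicate 3 was the highest library for 37 of the 79 nuclear and 6 of the 13 mitochondrial genes, and CD103KO replicate 1 for 5 nuclear and 6 mitochondrial genes. Between the 2 libraries with Xist reads and the 4 without, mt-Nd1, mt-Atp8, mt-Nd3, mt-Nd4l and mt-Cytb did not overlap, each lower where Xist was read. These are 5 of 13, beside 10.1% of all tested genes lower and 9.99% higher in the same split, which was made with the values known. The 5 were found on the genes' own counts, without the chromosome 1 copies. With the copies added, mt-Nd4l overlapped in this split, while mt-Atp6 and mt-Co3 did not and were lower where Xist was read. The list thus depends on how reads were divided between genes and copies. Of the nuclear members 13 of 79 were lower and 1 was higher without overlap. With the term for those libraries, 69 of the 79 nuclear and 12 of the 13 mitochondrial values were negative, with medians of -0.051 and -0.081. Over all 13470 tested genes 6629 were negative, with a median of 0.0025.

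**Figure D4:**
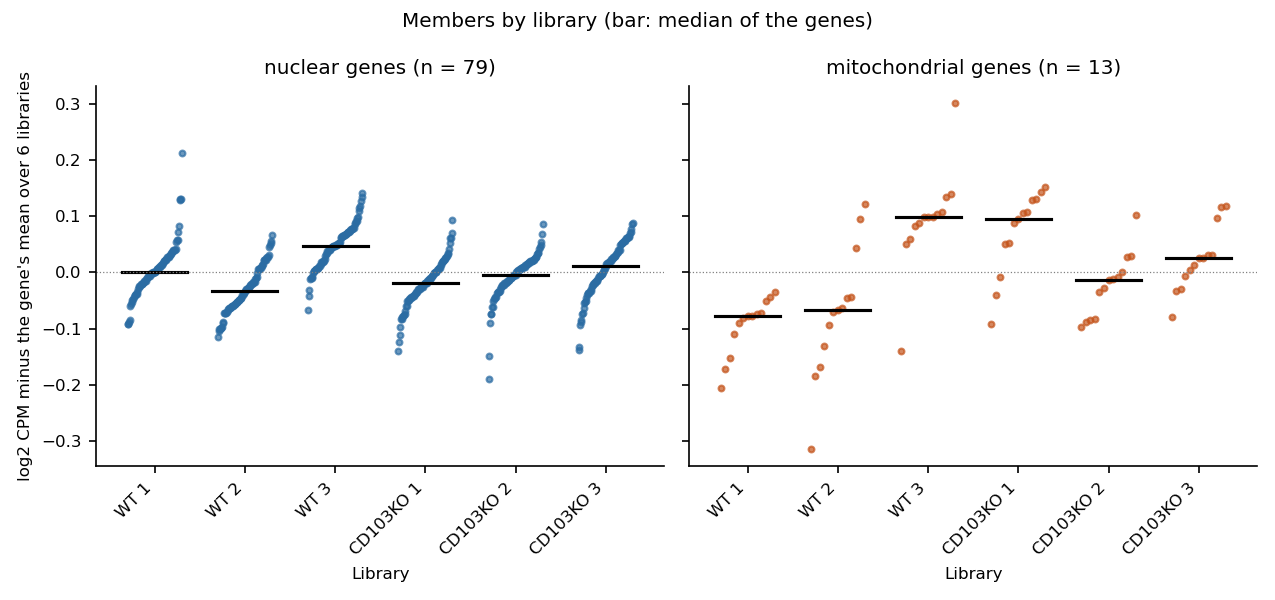
Log2 CPM of each member minus its mean over the 6 libraries (y axis) by library (x axis), nuclear genes on the left and mitochondrial genes on the right, with the median as a bar. WT 1 and WT 2 have the lowest mitochondrial medians, -0.08 and -0.07, and WT 3 and CD103KO 1 the highest, both 0.10.

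Levels per length, in CPM per kb of the longest principal transcript, set the 2 genomes far apart. The median was 90.4 CPM per kb over the nuclear members and 2387 over the mitochondrial members, a 26.4-fold difference (25.01-fold with the shortest principal transcript and 47.7-fold with the union of exons). With the chromosome 1 copies added to their genes the mitochondrial median was 3879.5 CPM per kb, 42.9-fold above the nuclear one. By complex, the nuclear medians were 54.0 CPM per kb for complex I, 63.3 for II, 93.3 for III, 146 for IV and 149 for V. The highest nuclear gene placed in complex I by its symbol was Ndufa4 (173 CPM per kb), since assigned to complex IV, with Ndufa6 next (139). The highest of the other complexes were Sdha in II (112), Uqcrh in III (386), Cox7a2l in IV (545) and Atp5b in V (449.6). Sdha stood 4.83-fold above Sdhc per kb, although the complex holds 1 copy of each. The lowest were Ndufb2 in I (4.64 CPM per kb), Sdhc in II (23.2), Uqcrq in III (38.1), Cox7a2 in IV (90.9) and Atp5s in V (0.679). Several of these lows rest on the transcript chosen: by the shortest principal transcript the lowest in complex I was Ndufb4 and in complex III Uqcrfs1, and Atp5g1 was at 16.1 or 127 CPM per kb by the longest or the shortest. Ndufb4 was lowest on its own counts only, since its identical copy Ndufb4c held 70.3% of the counts of the pair. Cycs was at 35.98 CPM per kb.

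**Figure D5:**
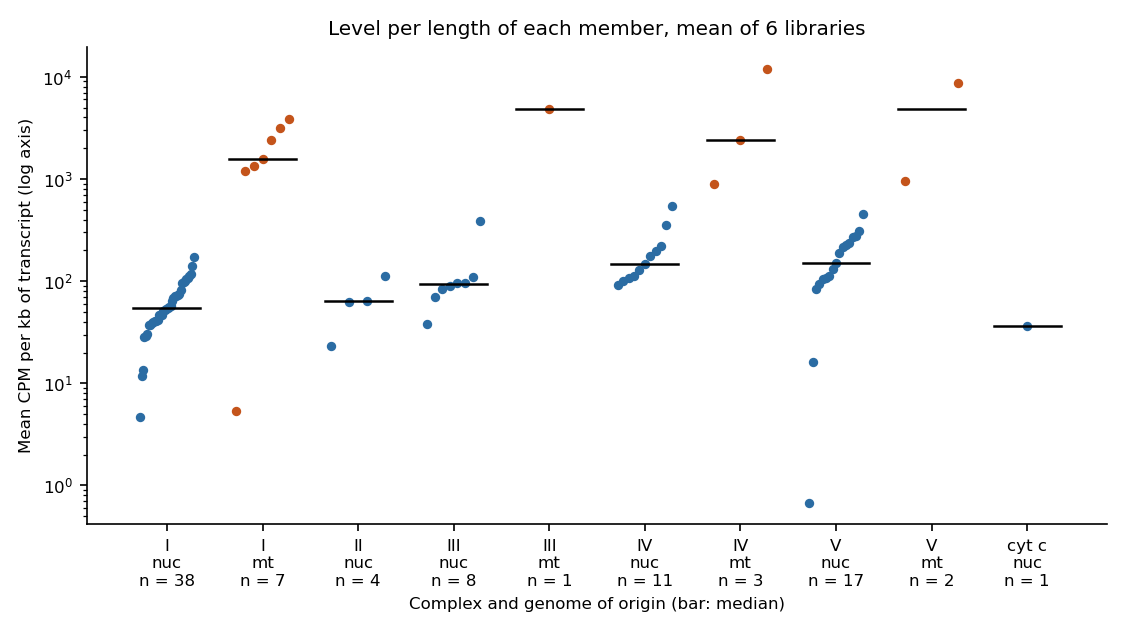
Mean CPM per kb of transcript over 6 libraries (log y axis) of each member by complex and genome of origin (x axis), nuclear genes in blue and mitochondrial genes in orange, with the median as a bar. The mitochondrial medians lie above the nuclear ones in every complex that has both, and mt-Nd6 lies at 5.34 CPM per kb.

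At the threshold of 1 CPM, the members just inside were Atp5s (1.09 CPM), a coupling factor and not a subunit, and mt-Nd6 (2.77 CPM). Just outside was Cox6b2 (0.315 CPM). Of the 19 genes below it, 7 had 0 counts in every library: Cox7b2, Cox8b, Cox8c, Ndufa11b, Ndufa4l2, Uqcrh-ps2 and Atp5l-ps2. The remaining ones were a second gene listed as Atp5o, the isoforms Cox4i2, Cox6a2 and Cox7a1, and pseudogenes or near copies.

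Genes that serve the respiratory chain were taken from lists of assembly factors, expression machinery and neighbouring pathways. None of the 17 complex I assembly factors and none of the 37 tested assembly factors of complexes II to V passed (edgeR). Their medians were -0.03 and -0.03 on the log2 scale, with 10 of 17 and 28 of 37 values negative, beside 6875 of 13470 tested genes. Coa4, an assembly factor of complex IV, was at 5.34, 5.21 and 5.46 CPM in WT and at 4.58, 4.40 and 4.06 CPM in CD103KO, a log2 fold change of -0.30 (SE 0.09) that did not pass (adjusted p = 0.432, edgeR). Sdhaf1, an assembly factor of complex II, was at -0.28 (SE 0.11, adjusted p = 0.523, edgeR). Ecsit and Tmem186 had the smallest p among complex I factors, at 0.12 and -0.13 (adjusted p = 0.630 and 0.646, edgeR). Of the subunits whose names the rule misses, Cyc1, the cytochrome c1 of complex III, was at 70.6 ± 1.44 and 73.8 ± 0.539 CPM without overlap (adjusted p = 0.675, edgeR), and Ndufab1, the acyl carrier protein, at 35.4 ± 3.06 and 36.5 ± 1.79 CPM.

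The machinery that expresses the mitochondrial genome had 31 tested genes, none of which passed, with a median of -0.03. Lrpprc, which stabilises mitochondrial mRNAs, was at 93.1 ± 2.66 CPM in WT against 99.8 ± 3.75 CPM in CD103KO (adjusted p = 0.558, edgeR), and Mterf1a, a transcription terminator, at 6.11 ± 0.309 and 5.09 ± 0.390 CPM (adjusted p = 0.468, edgeR). The 78 mitochondrial ribosomal proteins had a median of -0.03 and none passed. Mrpl55 had the smallest p, at 10.7, 10.5 and 10.4 CPM in WT and at 7.95, 8.31 and 7.35 CPM in CD103KO (log2 fold change -0.42, SE 0.07, adjusted p = 0.101, edgeR; 0.00519 with DESeq2). It lies on chromosome 11, 13.9 Mb from Itgae. Mrpl22, 14.9 Mb from Itgae on that chromosome, was next, at 17.2 ± 0.675 and 15.5 ± 0.639 CPM and lower in every CD103KO library (log2 difference -0.15, adjusted p = 0.535, edgeR). Of the mitochondrial rRNAs, which lack the long poly(A) tails that this kind of library selects, mt-Rnr2 was at 657, 484 and 581 CPM in WT and at 468, 471 and 406 CPM in CD103KO. The groups did not overlap and the log2 fold change of -0.36 (SE 0.10) did not pass with edgeR (adjusted p = 0.421) but did with DESeq2 (adjusted p = 0.0192). mt-Rnr1 was at 312 ± 38.1 and 330.2 ± 13.4 CPM.

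Among 13 tested regulators of mitochondrial biogenesis none passed. Esrra, the nuclear receptor ERR alpha, which acts on respiratory genes, had the smallest p. It was at 23.9, 24.1 and 24.5 CPM in WT and at 22.2, 22.4 and 22.4 CPM in CD103KO, lower in every CD103KO library (log2 difference -0.11, SE 0.05, adjusted p = 0.590, edgeR). Nrf1 was at 52.7 ± 2.16 and 53.3 ± 2.11 CPM, Gabpa at 96.1 ± 2.45 and 96.7 ± 3.73 CPM and Yy1 at 191 ± 7.81 and 196 ± 5.82 CPM in WT and CD103KO. Of the coactivators, Ppargc1a was near 0 (0.0184 and 0.0610 CPM), Ppargc1b was at 5.91 ± 0.738 and 5.56 ± 0.153 CPM, and Pprc1 at 76.6 ± 5.75 and 85.7 ± 8.85 CPM (adjusted p = 0.620, edgeR, for Pprc1). None of 18 TCA cycle genes passed, with 16 positive values, beside 6595 of 13470 tested genes, and a median of 0.013. Idh3a had the smallest p of these 18 (0.08, SE 0.04, adjusted p = 0.654, edgeR). Ogdh, the E1 subunit of the oxoglutarate dehydrogenase complex, was at 303 ± 1.24 and 314.9 ± 7.94 CPM and higher in every CD103KO library (adjusted p = 0.700, edgeR). None of 7 tested carriers and channels passed. Vdac3, a channel of the outer membrane, had the smallest p, at 65.5 ± 3.45 and 70.1 ± 3.42 CPM with overlapping groups (adjusted p = 0.648, edgeR). Slc25a4, which exchanges ADP and ATP, was at 170 ± 3.42 and 164 ± 2.08 CPM, and Slc25a5, its more abundant relative here, at 482 ± 13.6 and 489 ± 20.98 CPM.

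Nnt, the transhydrogenase of the inner membrane that uses the proton gradient to make NADPH, was one of 8 tested genes of superoxide and peroxide defence, none of which passed. It was at 37.1, 35.8 and 39.2 CPM in WT and at 40.2, 16.6 and 19.1 CPM in CD103KO. CD103KO replicate 1 stood with WT, and CD103KO replicates 2 and 3 stood apart and lower (log2 fold change -0.56, SE 0.28, adjusted p = 0.623, edgeR). The labels give the WT strain as C57BL/6 with no substrain. Gsr, glutathione reductase, was at 28.8 ± 0.426 and 27.0 ± 0.681 CPM and lower in every CD103KO library (adjusted p = 0.669, edgeR).

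Promoter sequences from RefSeq (GRCm38.p6, 250 bases before to 50 bases after the start) were present for 66 of the 79 nuclear members and were searched on both strands for letters of factors known to bind respiratory genes. The NRF1 letters, GCGCA and GCGC with any 1 base between them, were found in 17 of the 66 (25.8%), beside 7.17% of 17492 protein-coding promoters and 12.4% of those of tested genes. The letters of YY1, AAGATGGC, were found in 10 (15.2%, beside 3.57% and 5.67%), all in complexes I and V. The ETS letters CCGGAAG, which GABPA shares, were found in 16 (24.2%, beside 12.9% and 22.0%). CREB letters TGACGTCA were in 5 (7.58%, beside 2.54% and 3.69%), and SP1 letters GGGCGG in 27 (40.9%, beside 49.2% and 69.1%). Median GC content was 58.7% for the members and 56.3% for all protein-coding promoters. Of the 17 genes with NRF1 letters, 7 belonged to complex I, 2 to II, 1 to III, 1 to IV and 6 to V. Windows of 5 members described above are shown with the NRF1 letters, or their reverse complement, in capitals, and a match is not evidence of binding. They lie on the minus strand at chr15:82354249-82354278 (Ndufa6), chr16:37654371-37654400 (Ndufb4), chr13:74350276-74350305 (Sdha, which holds 3 matches), chr9:50603909-50603938 (Sdhd) and chr5:108434430-108434459 (Atp5k).
Ndufa6: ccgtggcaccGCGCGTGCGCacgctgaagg
Ndufb4: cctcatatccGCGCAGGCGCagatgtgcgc
Sdha: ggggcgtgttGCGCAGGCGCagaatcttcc
Sdhd: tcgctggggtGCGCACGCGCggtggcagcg
Atp5k: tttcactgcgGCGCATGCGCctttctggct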

How the data were processed

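The submitters' processing notes name bcl2fastq 2.20, cutadapt 1.18, STAR 2.7.0f and RSEM with GRCm38 and mm10. The sources used here do not name the RSEM version, annotation release or strand setting. Per gene and library the authors deposited expected counts, which were rounded to whole numbers (6.48% were not whole to within 1e-09). All 55450 identifiers matched GENCODE M21 (GRCm38), the source of coordinates and lengths. Total counts were 68292475 to 94347034, and pairs of libraries within a group differed by more than sampling noise.

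CD103KO was tested against WT with edgeR 4.0.16 (R 4.3.3): filterByExpr (minimum count 10), TMM, quasi-likelihood F test, Benjamini-Hochberg over 13470 genes at 0.05. CPM are TMM-scaled. On simulated data it called 0% of 50 genes changed 1.1-fold, 12% of those changed 1.2-fold, 64% for 1.5-fold and 74% for 2-fold. Copies were found with BLAST 2.17.0 (megablast, at least 90% identity over 150 bases and 50% of the shorter transcript), which 38 members had.

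Members and lists were chosen with earlier results of these data known. Named were all mitochondrial members, the 12 nuclear members of smallest p, the highest and lowest per length in each complex, isoform families, the Sdh genes, Cycs, members on chromosome 11, those near the threshold and, per list, the 2 of smallest p. Uqcrfs1, Cox6c, Ndufb4c, the chromosome 1 copies, Nrf1, Gabpa, Yy1, Ppargc1a, Ppargc1b and Slc25a5 lie outside that rule and were chosen after their values were seen.

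Alternatives were RLE and upper-quartile factors, scaling over nuclear genes, 2 other filters, DESeq2 1.42.0, limma-voom (limma 3.58.1), unrounded counts, an adjusted p of 0.1, the replicate number as a block, a term for libraries with Xist above 1 CPM, each library left out, other member thresholds and lengths, and, added after seeing the data, sums with copies that cover 50% of the shorter transcript.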

Additional observations from a re-analysis of the deposited data

How the results depend on the processing

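The count of members passing was 0 in every setting except without WT replicate 3, where it was 1 (mt-Atp8), so that it ranged from 0 to 1 as libraries were left out. The count over all genes, 30 in the analysis reported, was 112 with no filter on low counts, 15 with the term for libraries with Xist reads, 128 with DESeq2 and 19 to 59 as libraries were left out (59 without CD103KO replicate 1, 19 without CD103KO replicate 2 and 52 without WT replicate 3). The term for libraries with Xist reads moved the median log2 fold change to -0.051 for nuclear and -0.081 for mitochondrial members, to -0.065 for complex I, -0.074 for complex III and -0.054 for complex IV. The median of complex II ranged from -0.020 to 0.014 as libraries were left out, and was 0.014 without WT replicate 3. The median level of nuclear members was 50.04 CPM per kb by the union of exons and 95.4 by the shortest principal transcript, against 90.4. Every other value of these summary results stayed within the spread between libraries or, for counts, within 1.5 times (199 of 214 comparisons). The median of all tested genes stayed between -0.0099 and 0.0025 under the other scalings and designs.

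The labels do not say that replicate numbers pair the samples. Deviations of same-numbered libraries correlated at -0.19, 0.0046 and -0.05, and those of other-numbered libraries at -0.13 to 0.18. With 3 libraries per group these values cannot decide whether the samples were paired. With the replicate number as a block 24 genes and 0 members passed. Sums with copies found at 90% identity over 150 bases without the cover requirement were not run, since 491 pairs, shared repeats included, met it, against 52 with it. At these depths the least abundant member, Atp5s, had a 95% interval of -0.54 to 0.28 (log2), the widest of the 92.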
